A study of Mus musculus with 12 samples.

Results

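The change of gene expression in wild-type (WT) OCY454 cells between day 1 and day 14 of differentiation was followed across all expressed genes. The samples were chosen by their labels alone, as the 2 WT libraries of day 14 and the 2 WT libraries of day 1, which are 4 of the 12 libraries in the series. OCY454 cells were derived from mouse bone and resemble osteocytes; they carry a large T antigen that works only at low temperature, so they divide at 33 °C and differentiate once they are moved to 37 °C. WT day 14 cells had been at 37 °C for 14 days and WT day 1 cells for 1 day, the basal state of the study. Cells of the same line with a CRISPR-Cas9 deletion of exons 19 to 21 of Piezo1 are labelled KO. The other groups compared were KO cells at days 14 and 1 and WT cells at day 28, with 2 libraries each. KO cells at day 28, also with 2 libraries, entered the fit to all 12 libraries. Their levels are given for some genes, but they were not part of any comparison tested. Piezo1 is a mechanically gated cation channel, and the study asked what it does as osteocytes differentiate. The labels do not say whether the replicates were separate cultures or how many edited clones the KO line came from, so the p-values reflect the spread between the libraries at hand, which may be technical. The line is immortalized and grown in plates, and all groups share that background.

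Osteocytes are the cells of the osteoblast lineage that become buried in the bone matrix they helped to lay down. On the way they pass through a phase of heavy secretion of type I collagen and of the proteins that nucleate mineral, and they then extend dendrites, slow their matrix output and begin to secrete regulators of bone formation such as sclerostin. Proteins bound for the matrix fold in the endoplasmic reticulum (ER), where the chaperone BiP (gene Hspa5) and its partners are raised by the transcription factors ATF6 and XBP1 when the folding load grows.

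The WT day 14 libraries held 11801705 and 8590067 counts and the WT day 1 libraries 14696779 and 14509583. Each gene's level is given as CPM, a gene's count relative to its library's total, with totals scaled by the trimmed mean of M values (TMM), which makes libraries comparable for 1 gene but does not correct for transcript length. Log2 fold changes are WT day 14 over WT day 1, with the standard error after ±, from an edgeR quasi-likelihood fit to all 12 libraries with n = 2 per group. A gene is called when its Benjamini-Hochberg adjusted p, over all 13772 genes tested, is below 0.05. The replicates of each group differed by more than sampling noise, so none was counted as a repeat of another. Among genes that averaged 10 CPM or more, 24 of 9419 differed by more than 1.5-fold between the WT day 14 replicates and 5 of 9305 between the WT day 1 replicates.

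Of the 13772 genes tested, 4696 were called (34.1%), with 2505 higher at day 14 (18.2%) and 2191 lower (15.9%). Most of these changes were small. A change of more than 2-fold was called for 611 genes that were higher (4.44%) and 214 that were lower (1.55%), and the upward tail was also the longer one, with 158 called genes more than 4-fold higher and 42 more than 4-fold lower. The median log2 fold change over all genes tested was 0.001. Counts within the gene lists below are to be read beside the 18.2% higher and 15.9% lower of all genes tested. Regardless of the test, both day 14 libraries lay above both day 1 libraries in 4744 genes (34.4%) and below them in 4796 (34.8%). With library totals in place of TMM the split turned to 2063 higher and 2956 lower, with a shift of all genes by -0.06 in log2. The count of lower genes was 1405 without WT day 1 replicate 2, 1435 without WT day 14 replicate 1 and 1355 without WT day 14 replicate 2. Protein-coding genes made up most of the calls, with 2440 higher and 2095 lower of 12608. Among 421 antisense genes, 12 were higher and 29 lower, and among 325 long intergenic RNAs 21 were higher and 26 lower.

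**Figure D1:**
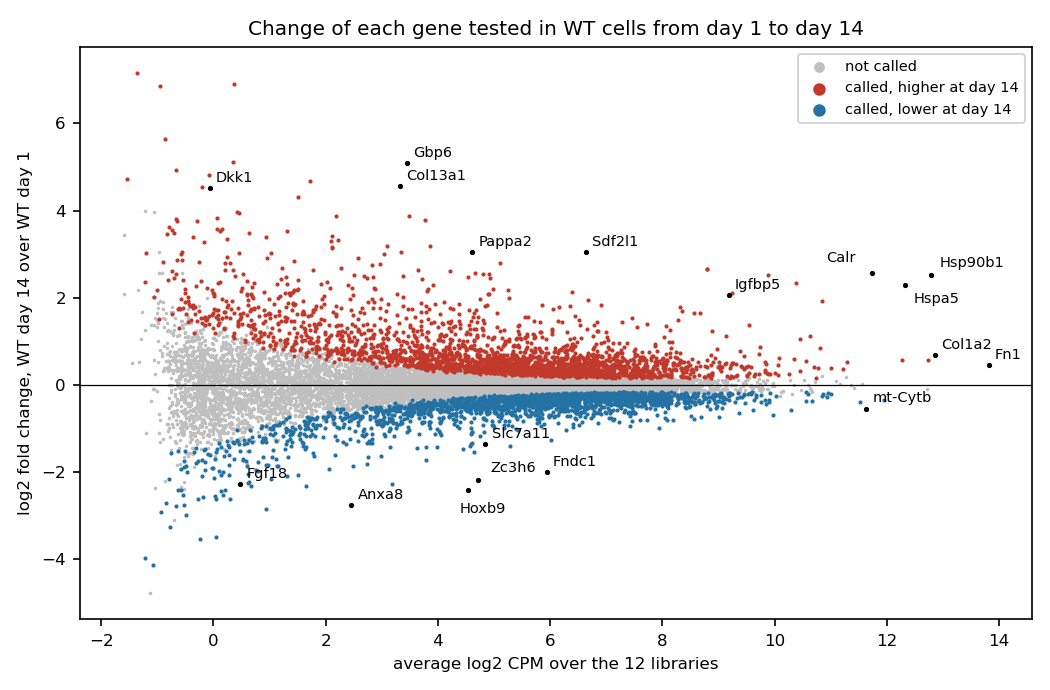
Log2 fold change of WT day 14 over WT day 1 (vertical) against the average log2 CPM over 12 libraries (horizontal) for the 13772 genes tested, 1 point a gene. The 2505 called higher (red) and 2191 called lower (blue) genes are shown with a few of them named, and the chaperone genes Hsp90b1, Hspa5 and Calr stand apart from other abundant genes.

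The genes with the steepest rise were mostly of low abundance at day 1. Gbp6, a guanylate-binding protein induced by interferon (chromosome 5, 105270702 to 105293698, minus strand, GRCm38), had 7.67 and 6.24 CPM at day 14, against 0.260 and 0.131 CPM at day 1, a log2 fold change of 5.10 ± 0.54 (adjusted p = 3.36e-07). Col13a1, a collagen anchored in the plasma membrane (chromosome 10, 61838236 to 61979108, minus strand), had 32.7 and 33.8 CPM at day 14, against 1.10 and 1.71 CPM at day 1 (4.55 ± 0.23, adjusted p = 2.96e-12). For genes named by this rule the days could not overlap, since the rule required it. Other genes among the 15 highest were Ppfia2, a presynaptic scaffold protein (4.32 in log2), Gucy1a1, a subunit of the nitric oxide receptor guanylate cyclase (3.88), Abca8a, a lipid transporter (3.79), Ano1, a calcium-activated chloride channel (3.33), Cacna1d, a voltage-gated calcium channel (3.54), and Pcdh10, a protocadherin (3.31). The interferon-induced Slfn8, Rtp4 and Ifi44, the class I gene H2-Q6, the bone-derived hormone gene Ostn, and Ccdc194 and Klhl29 made up the rest of that set, with log2 fold changes between 3.14 (Klhl29) and 4.67 (Ccdc194).

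The steepest falls under the same rule were shallower. Some rarer genes outside the rule fell further, such as Hs3st1, with 1 count over the WT day 14 libraries against 31 over the WT day 1 libraries. Anxa8, a calcium-dependent phospholipid-binding annexin, had 2.11 and 1.85 CPM at day 14, against 11.9 and 15.3 CPM at day 1 (-2.77 ± 0.23, adjusted p = 1.20e-08). Hoxb9, a homeobox factor of axial and limb patterning, had 1.52 and 1.73 CPM at day 14, against 8.25 and 8.98 CPM at day 1 (-2.41 ± 0.23, adjusted p = 9.46e-08). Fndc1, a fibronectin type III domain protein, had 51.8 and 54.0 CPM at day 14, against 197 and 223 CPM at day 1 (-1.99 ± 0.12, adjusted p = 3.44e-11). Lack of overlap between the days was again required of these genes. The 15 lowest also held the zinc finger gene Zc3h6 (-2.18), the LIM protein gene Zfp185 (-2.08), the proteoglycan gene Spock2 (-1.82), the cytokine receptor subunit gene Il20rb (-1.85), the histone gene Hist1h2bc (-1.72) and the glycosyl- and sulfotransferase genes B4galnt4 (-1.93) and Hs3st3a1 (-1.85). Prr7, Ccdc150, Peg12 and the non-coding 9230116N13Rik and Gm20633 completed the set, with log2 fold changes of -2.31 (9230116N13Rik) to -1.86 (Peg12). Il20rb was not called without WT day 1 replicate 2 (-1.46) or without WT day 14 replicate 1 (-1.75).

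On the CPM scale, which also grows with transcript length, the largest gains were in genes of the secretory pathway and of the matrix. The 10 called genes with the largest rise in mean CPM were the ER chaperones Hsp90b1, Hspa5, Calr, Canx, Pdia3 and P4hb, the type I collagen chains Col1a1 and Col1a2, the type V chain Col5a2 and fibronectin (Fn1). Hsp90b1, the ER member of the HSP90 family, averaged 7039.7 ± 431 CPM at day 14 and 1226 ± 33.2 CPM at day 1 (SD, n = 2 each). The 10 with the largest fall were Ncl and Hnrnpa2b1, which bind RNA, the RNA helicase gene Ddx5, the matrix gene Tnc, the desaturase gene Scd2, the cytoskeletal Sptan1 and 4 mitochondrially encoded genes. Hnrnpa2b1 was not called without WT day 1 replicate 1 (-0.21, adjusted p = 0.0585) or without WT day 14 replicate 2 (-0.22, adjusted p = 0.0619). Ncl, the nucleolar protein nucleolin, averaged 3013 ± 13.9 CPM at day 14 and 3797 ± 88.6 CPM at day 1.

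Markers of osteocytes were present in part. Of 15 markers, 13 passed the filter on low counts and 5 were called, each higher at day 14. Dmp1, the acidic matrix protein of early osteocytes, had 11.9 and 16.1 CPM at day 14, against 4.94 and 6.49 CPM at day 1 (1.27 ± 0.22, adjusted p = 0.000147). Dkk1, a secreted Wnt inhibitor, had 3.79 and 4.16 CPM at day 14, against 0.130 and 0.197 CPM at day 1 (4.52 ± 0.56, adjusted p = 2.46e-06). The 2 days did not overlap for either gene, but the size of the Dkk1 change rests on few counts at day 1. The phosphatase gene Ptprz1 (2.33), the secretory kinase gene Fam20c (0.40) and the homeobox gene Irx5 (0.38) were the others, and Irx5 was not called without WT day 1 replicate 2 (0.30), without WT day 14 replicate 1 (0.40) or without WT day 14 replicate 2 (0.36). Sost, which encodes sclerostin, stayed near the detection limit, with 0.505 and 1.16 CPM at day 14 and 1.30 and 1.11 CPM at day 1, and was not called (adjusted p = 0.404). The late marker Mepe had 0.842 and 2.20 CPM at day 14 and 1.04 and 0.918 CPM at day 1 (adjusted p = 0.404), and Fgf23 and Kl were below the filter. Phex, Pdpn, Cd44, Npnt, Pth1r and Ackr3 were not called. In a fit to the 4 libraries alone Pdpn, Pth1r and Ackr3 were called higher and Npnt was called lower (-0.16). The summed level of the list was 1261 and 1208 CPM at day 14, against 1223 and 1283 CPM at day 1, so the libraries of the 2 days overlapped. In bulk RNA a change in the share of cells that express a gene cannot be told from a change of its level per cell.

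Transcription factors of the osteoblast lineage changed in both directions. Of 18 tested, 7 were higher and 2 lower (6 and 3 with library totals), with a median log2 fold change of 0.13. Runx2 and Sp7, the factors that commit cells to the lineage, were not called, at 177 and 169.8 CPM for Runx2 at day 14, against 189 and 220.2 CPM at day 1, and 262 and 236 CPM for Sp7 at day 14, against 259 and 267 CPM at day 1. Dlx3, a homeobox activator of osteoblast genes, had 25.8 and 26.0 CPM at day 14, against 12.3 and 13.1 CPM at day 1 (1.03 ± 0.22, adjusted p = 0.00106), and Zbtb16 (1.97), Twist1 (0.74) and Foxc1 (0.48) also rose. The 2 lower ones were Foxc2 (-1.69) and Mef2c (-0.33), a factor that drives Sost in osteocytes. Foxc2 was not called without WT day 14 replicate 1 (-1.08), and Mef2c was not called without any 1 of the 4 libraries (adjusted p = 0.101 to 0.196). Runx2 (-0.24 ± 0.10, adjusted p = 0.0608) was near the threshold, and its call depended on the fit. It was called lower with library totals (adjusted p = 0.0182) and with no filter on low counts (adjusted p = 0.00853). A fit to the 4 libraries alone also called it lower (adjusted p = 9.47e-05), as did the fit without WT day 1 replicate 1 (-0.34). DESeq2 did not call Dlx3 (adjusted p = 0.0504).

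Genes of mineralization rose in larger number, 10 of 17 against 3 that fell. Bglap2, an osteocalcin gene, had 38.8 and 27.6 CPM at day 14, against 5.13 and 6.23 CPM at day 1 (2.56 ± 0.16, adjusted p = 9.74e-11). Its near-identical copies Bglap (1.93) and Bglap3 (2.91) rose too, but reads of the 3 copies may have been split between them, so each of these values is uncertain. Ostn, which encodes the secreted peptide osteocrin, had 4.13 and 3.58 CPM at day 14, against 0.260 and 0.590 CPM at day 1 (3.17 ± 0.38, adjusted p = 3.24e-06). Bone sialoprotein (Ibsp, 0.39), osteonectin (Sparc, 0.52), osteopontin (Spp1, 0.27), the pyrophosphate-generating Enpp1 (0.79) and the phosphate transporter gene Slc20a1 (0.33) rose by less. The mineralization inhibitor Mgp (-0.72), the matrix vesicle phosphatase Phospho1 (-0.60) and the second phosphate transporter Slc20a2 (-0.52) fell. The calls of Ibsp, Spp1 and Mgp were weak: without WT day 1 replicate 1 Ibsp (0.40) and Spp1 (0.23) were not called, without WT day 1 replicate 2 Ibsp (0.38) and Mgp (-0.62) were not, without WT day 14 replicate 1 Ibsp (0.39) was not, and without WT day 14 replicate 2 none of the 3 was. Alpl, the tissue-nonspecific alkaline phosphatase, had 736 and 661 CPM at day 14 and 790.5 and 842 CPM at day 1 and was not called (adjusted p = 0.237). It was called lower in a fit with no filter on low counts (adjusted p = 0.00361) and in a fit to the 4 libraries alone (adjusted p = 4.89e-05). Among 7 measured regulators of osteoclasts, Csf1 (0.33) and Cxcl12 (0.69) rose, Tnfrsf11b, the decoy receptor osteoprotegerin, was not called (-0.14, adjusted p = 0.442), and Tnfsf11, the RANK ligand, was below the filter. Csf1 was not called without WT day 1 replicate 1 (0.25, adjusted p = 0.0515).

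Collagen chains rose as a group, with 18 of 24 higher, 1 lower and a median log2 fold change of 0.67. Col1a1, the alpha 1 chain of type I collagen, had 6889 and 7498 CPM at day 14, against 4879.9 and 4736 CPM at day 1 (0.58 ± 0.16, adjusted p = 0.00616). Col3a1, the fibril collagen of soft tissue and early bone, had 538 and 613 CPM at day 14, against 185 and 179.5 CPM at day 1 (1.66 ± 0.15, adjusted p = 3.34e-08). Col24a1, a fibrillar collagen of bone, had 74.5 and 76.3 CPM at day 14, against 16.1 and 17.2 CPM at day 1 (2.18 ± 0.13), and Col11a2 (1.64), Col15a1 (2.12) and the basement membrane chains Col4a1 (1.38) and Col4a2 (1.06) rose more than 2-fold. The day 14 libraries lay above the day 1 libraries for each of these genes. Col12a1, a collagen on the fibril surface, was the 1 chain that fell (-0.53 ± 0.10). The Col1a1 call was near the threshold: its log2 fold change was 0.56 (adjusted p = 0.0556) without WT day 1 replicate 2 and 0.53 (adjusted p = 0.0561) without WT day 14 replicate 2, and DESeq2 gave an adjusted p of 0.0843.

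Genes that process collagen rose in 14 of 25 cases and fell in 3. Serpinh1, the collagen chaperone HSP47, had 1509.5 and 1582 CPM at day 14, against 739 and 755 CPM at day 1 (1.05 ± 0.06, adjusted p = 6.28e-11). The lysyl oxidase gene Loxl4 (1.48), the prolyl hydroxylase subunits P4hb (0.85) and P4ha2 (0.62) and the 3-hydroxylases P3h3 (0.78) and P3h2 (0.64) rose. Bmp1, the protease that removes the collagen C-propeptide, fell (-0.80 ± 0.08), as did the collagen prolyl isomerase gene Fkbp10 (-0.53).

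Other matrix genes rose in 15 of 27 cases and fell in 5. Eln, which encodes elastin, had 67.7 and 59.9 CPM at day 14, against 12.0 and 11 CPM at day 1 (2.47 ± 0.21, adjusted p = 1.41e-08). The leucine-rich proteoglycans Aspn (1.47), Prelp (1.17) and Bgn (0.76), the large proteoglycan Vcan (1.29) and the basement membrane protein Nid1 (1.26) rose. Tenascin C (Tnc, -0.36) and thrombospondin 1 (Thbs1, -0.51) were among those that fell, and the number that fell was 3 without WT day 1 replicate 2, 3 without WT day 14 replicate 1 and 3 without WT day 14 replicate 2. Laminin chains followed the same direction as the collagens: among 23 integrin and laminin genes 12 were higher and 3 lower, led by Lama3 (2.49), Lama4 (1.70), Itga1 (1.55) and Lama2 (1.53), while Itga11 (-0.59) and Itga5 (-0.38) were among the lower ones. Matrix proteases and their inhibitors split, with 13 of 25 higher and 6 lower. Adam12 (2.19), the aggrecanase gene Adamts5 (1.14) and Adamts12 (1.23) rose. Of these proteases and inhibitors, the number that fell was 3 without WT day 1 replicate 2 and 3 without WT day 14 replicate 2.

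Genes of protein folding in the ER rose together. Of 34 ER genes, 30 were higher, none was lower and the median log2 fold change was 0.99. Hspa5, the central chaperone BiP, had 4982 and 5258 CPM at day 14, against 1011 and 1061 CPM at day 1 (2.31 ± 0.07, adjusted p = 5.36e-16). Calr, the lectin chaperone calreticulin, had 3906 and 4041 CPM at day 14, against 645 and 690.1 CPM at day 1 (2.57 ± 0.07, adjusted p = 2.08e-16). Sdf2l1, a cofactor of BiP, had 112 and 110.1 CPM at day 14, against 12.2 and 14.8 CPM at day 1 (3.04 ± 0.09, adjusted p = 2.94e-16). For each of these genes the 4 libraries fell into pairs with no overlap. Manf (2.66), Creld2 (2.66), Hsp90b1 (2.52), the disulfide isomerases Pdia6 (2.52), Pdia4 (2.34) and Pdia3 (1.92), the co-chaperones Hyou1 (2.12), Dnajb9 (1.84), Dnajc3 (1.79) and Dnajb11 (1.5) and the oxidase Ero1lb (2.08) rose more than 2-fold. Xbp1, the factor behind many of these genes, had 127 and 123 CPM at day 14, against 63.3 and 67.9 CPM at day 1 (0.93 ± 0.08), and the degradation genes Sel1l (1.25), Edem1 (0.85) and Herpud1 (0.74) rose as well. Atf6, the sensor Ern1, the oxidase Ero1l and the low-abundance Derl3 were not called. Gene-level counts do not show the splicing of Xbp1 or the cleavage of ATF6.

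The ER stress response element (ERSE) is the sequence through which ATF6 and XBP1 act on chaperone promoters, and its letters were looked for as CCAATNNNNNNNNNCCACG on either strand, from 250 bases before to 50 bases after each gene start in the RefSeq promoter table (GRCm38.p6). It was present in 10 of 28 ER genes with a promoter in the table (35.71%), against 37 of 27025 genes in all (0.14%) and 17 of 10659 genes tested (0.16%). It was in 9 of 449 genes called more than 2-fold higher (2.0%) and in 0 of 147 called more than 2-fold lower. These sets overlap, since 17 of the 34 ER genes were called more than 2-fold higher. The gene lists were written with these genes' regulation in mind, and a match is a description of letters. The 10 genes were Hspa5, Hsp90b1, Calr, Canx, Creld2, Pdia6, Dnajc3, Ero1b (Ero1lb in the count table), Syvn1 and Derl3. The stretch before the Hspa5 start (chr2:34771840-34772089, plus strand) and shorter windows around the element of 5 other chaperone genes are shown 5′ to 3′ on the gene's strand, with the element in capitals. In Hspa5 it began 65 bases before the start, and in Calr and Creld2 the letters match on the other strand, so the printed run is their reverse complement.
Hspa5: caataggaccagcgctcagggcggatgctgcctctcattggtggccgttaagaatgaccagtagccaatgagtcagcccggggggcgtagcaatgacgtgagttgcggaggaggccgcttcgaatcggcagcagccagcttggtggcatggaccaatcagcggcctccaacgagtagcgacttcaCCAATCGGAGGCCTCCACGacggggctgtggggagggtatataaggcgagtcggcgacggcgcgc
Hsp90b1, chr10:86705623-86705671, minus strand: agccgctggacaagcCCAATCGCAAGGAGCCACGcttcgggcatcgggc
Calr, chr8:84847060-84847108, minus strand: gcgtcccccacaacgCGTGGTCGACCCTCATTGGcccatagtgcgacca
Pdia6, chr12:17266476-17266524, plus strand: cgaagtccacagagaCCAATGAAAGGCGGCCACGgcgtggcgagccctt
Creld2, chr15:88819505-88819553, plus strand: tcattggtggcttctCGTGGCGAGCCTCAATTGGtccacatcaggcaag
Canx, chr11:50325785-50325833, minus strand: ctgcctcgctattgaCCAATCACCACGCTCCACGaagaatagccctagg
The 6 genes shown rose by 1.12 (Canx) to 2.66 (Creld2) in log2 between day 1 and day 14. Derl3, which also holds the element, was not called. Sdf2l1, Manf and Pdia4 rose more than 2-fold and are not among the 10 genes with a match.

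The integrated stress response, which works through ATF4 when translation initiation is curbed, was split. Of 33 genes, 8 were higher and 13 lower, with a median of -0.13. Atf5, a transcription factor of the pathway, had 369.9 and 365 CPM at day 14, against 182 and 189 CPM at day 1 (0.99 ± 0.07), and Ddit3, the pro-apoptotic factor CHOP, had 585 and 548 CPM at day 14, against 379 and 433 CPM at day 1 (0.48 ± 0.08). Slc7a11, the cystine transporter, fell to 17.9 and 19.9 CPM at day 14, against 46.7 and 49.9 CPM at day 1 (-1.36 ± 0.13, adjusted p = 1.07e-07), and Atf3 (-0.92), Stc2 (-0.77) and the serine synthesis gene Psph (-0.68) also fell. The number that rose was 4 without WT day 1 replicate 1, 3 without WT day 1 replicate 2 and 3 without WT day 14 replicate 1, and the number that fell was 6 without WT day 1 replicate 2, 8 without WT day 14 replicate 1 and 7 without WT day 14 replicate 2; with library totals 4 were higher and 16 lower. Of 20 aminoacyl-tRNA synthetase genes, which charge tRNAs and are part of the same program, 9 were lower and 2 higher (12 and 1 with library totals), and the number that fell was 5 without WT day 1 replicate 1, 4 without WT day 1 replicate 2, 4 without WT day 14 replicate 1 and 4 without WT day 14 replicate 2.

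Interferon-stimulated genes were the list with the largest median change among the 59 lists, at 1.48 in log2. Of 43 tested, 38 were higher and none lower. These genes encode antiviral proteins and are switched on by factors such as IRF9 and IRF7. Isg15, a ubiquitin-like modifier, had 30.6 and 32.5 CPM at day 14, against 11.7 and 11.6 CPM at day 1 (1.43 ± 0.16, adjusted p = 5.22e-07). Oasl2, of the oligoadenylate synthetase family, had 49.3 and 48.3 CPM at day 14, against 8.77 and 8.06 CPM at day 1 (2.54 ± 0.12, adjusted p = 2.02e-12). The 2 days did not overlap for either gene. Ifi44 (3.19), Rtp4 (3.19), Usp18 (2.45), Gbp7 (2.02), Irf7 (1.75), Bst2 (1.65), Irf9 (1.25) and the RNA sensors Ifih1 (1.17) and Ddx58 (1.09) rose. Oas2 had 24 counts over the WT day 14 libraries and 0 over the WT day 1 libraries, which is at least 11.9-fold higher with 3 counts over the group in place of 0. Levels were low for most of the list in CPM, and Ifit1, Rsad2 and Gbp2 remained below 10 CPM in all 4 libraries. Irf1 and Ifit2 were not called.

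Class I antigen presentation genes, which interferon also induces, rose in 13 of 20 cases and fell in 2. B2m, the light chain of class I molecules, had 840.4 and 764 CPM at day 14, against 305 and 309.9 CPM at day 1 (1.39 ± 0.06, adjusted p = 8.06e-13). H2-K1 (1.55), H2-D1 (1.11), H2-Q4 (1.84) and H2-Q7 (3.05) rose, although reads of such similar heavy chain genes may be split between them. The immunoproteasome subunits Psmb8 (1.5) and Psmb9 (1.90), the peptide transporter Tap1 (1.08) and the class I activator Nlrc5 (1.07) rose. Tapbp and Tapbpl were lower (-0.31 and -0.43), and neither was called without any 1 of the 4 libraries. Of 20 targets of NF-kB, 2 were higher (Vcam1, 1.17, and Ptgs2, 0.98) and 2 lower (Cxcl1, -0.84, and Relb, -0.59), and with library totals 4 were lower. Cxcl1 was not called without WT day 1 replicate 1 (-0.75, adjusted p = 0.0575) or without WT day 14 replicate 2 (-0.73, adjusted p = 0.0664). Of 10 complement genes, 4 were higher, among them C1s1 (1.04) and C1ra (0.64), and Cd59a (-0.63) was lower.

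The interferon-stimulated response element (ISRE) was looked for as GAAANNGAAA on either strand in the same promoter windows. It was present in 18 of 32 interferon-stimulated genes with a promoter in the table (56.25%) and in 5 of 16 antigen presentation genes (31.25%), against 1079 of 27025 genes in all (3.99%). Among genes called more than 2-fold higher 46 of 449 held it (10.24%), and among those more than 2-fold lower 2 of 147 (1.36%), against 383 of 10659 genes tested (3.59%). These sets overlap, since 31 of the 43 interferon-stimulated genes were called more than 2-fold higher. The bases before the Isg15 start (chr4:156200819-156201068, minus strand) are shown because they hold 3 overlapping copies, with windows of Rsad2, Gbp2 and B2m, again with the element in capitals.
Isg15: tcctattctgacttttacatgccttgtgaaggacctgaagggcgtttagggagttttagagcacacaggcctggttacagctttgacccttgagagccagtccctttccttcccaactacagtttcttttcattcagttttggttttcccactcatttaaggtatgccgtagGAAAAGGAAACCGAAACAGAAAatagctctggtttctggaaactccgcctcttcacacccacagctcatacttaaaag
Rsad2, chr12:26456548-26456587, minus strand: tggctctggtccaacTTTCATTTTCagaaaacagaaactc
Gbp2, chr3:142620589-142620628, plus strand: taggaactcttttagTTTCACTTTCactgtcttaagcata
B2m, chr2:122147533-122147572, plus strand: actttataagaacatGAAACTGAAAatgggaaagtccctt
Rsad2, an antiviral enzyme, rose by 2.38 ± 0.48 and Gbp2 by 1.71 ± 0.24 in log2, and Isg15 and B2m rose as given above.

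**Figure D2:**
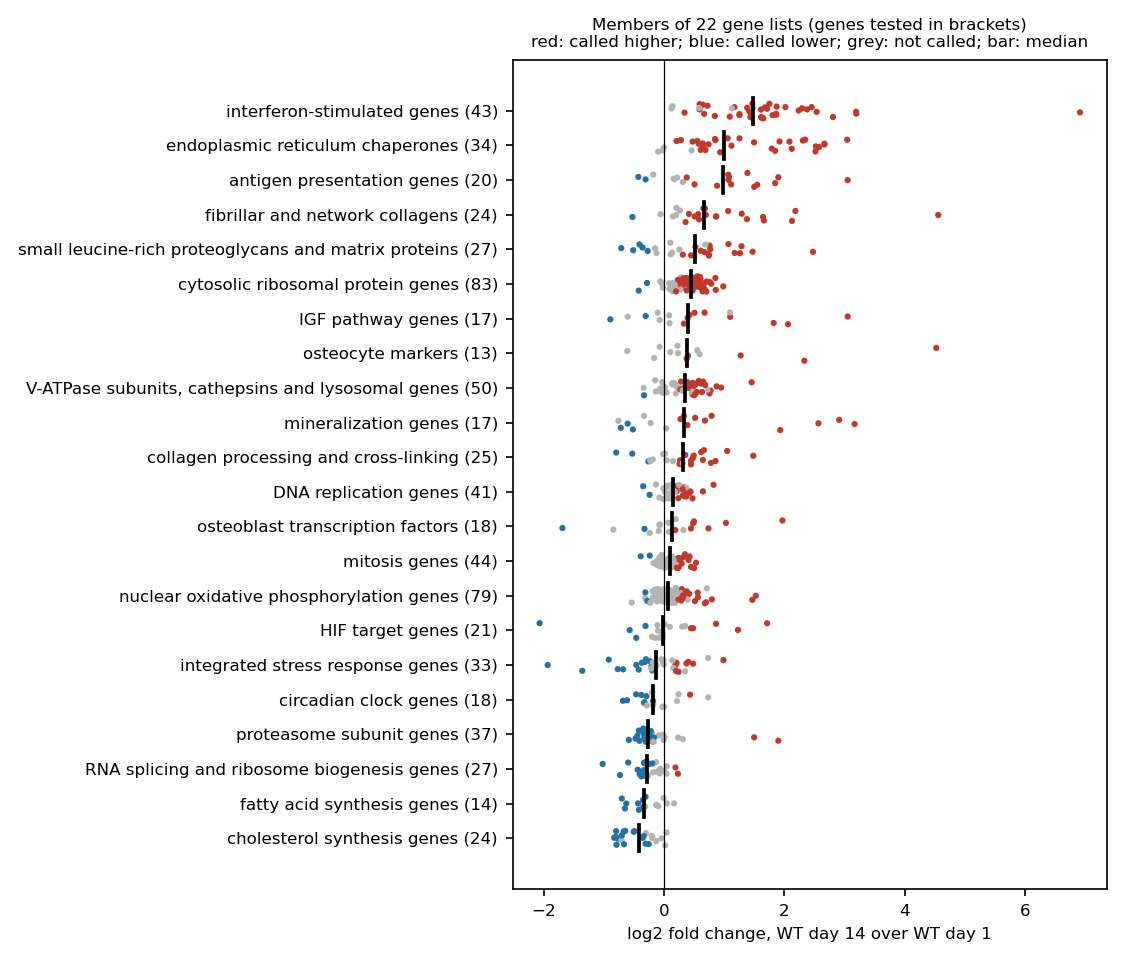
Log2 fold change of WT day 14 over WT day 1 (horizontal) for the tested members of 22 gene lists, 1 point a gene, with the list median as a bar. Interferon-stimulated and ER chaperone genes lie almost wholly above 0, and cholesterol and fatty acid synthesis genes have no member called higher.

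Ribosomal protein genes were mostly higher and proteasome genes mostly lower. Of 83 cytosolic ribosomal protein genes, 68 were higher and 2 lower, with a median log2 fold change of 0.45. Rpl13a, of the large subunit, had 1442 and 1500.4 CPM at day 14, against 1016 and 913 CPM at day 1 (0.61 ± 0.06, adjusted p = 2.57e-07). Rpl10 had the largest rise of these genes (0.98), and since many ribosomal protein genes have near-identical pseudogenes, single members are less certain than the group. Their transcripts are short, and when all genes tested were put into 5 classes of exonic length, the shortest class had a median of 0.05 and the longest of -0.03. Of 27 genes for ribosome assembly and splicing, 16 were lower and 2 higher (18 and 0 with library totals). They included Ncl (-0.33), Nop58 (-0.39), Mybbp1a (-0.44), Hnrnpd (-0.73) and Myc (-0.59), which drives ribosome production. The cold-induced RNA-binding genes Cirbp (-1.02 ± 0.15) and Rbm3 (-0.40 ± 0.07) were lower as well. Of 37 proteasome subunit genes, 24 were lower, with a median of -0.27, and the 2 that were higher were the interferon-inducible Psmb8 and Psmb9. Psmd1, of the regulatory particle, had 293 and 297 CPM at day 14, against 412 and 408 CPM at day 1 (-0.47 ± 0.06, adjusted p = 2.35e-06).

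Lysosomal genes rose in 27 of 50 cases and fell in 1. Hexa, a subunit of hexosaminidase, had 192 and 211 CPM at day 14, against 72.0 and 74.8 CPM at day 1 (1.46 ± 0.07, adjusted p = 4.36e-12). The cathepsins Ctsd (0.77), Ctsa (0.65), Ctsl (0.58) and Ctsb (0.50) and the membrane proteins Lamp1 (0.48) and Lamp2 (0.53) rose by less than 2-fold each. Ctsk, the collagen-degrading cathepsin, also rose (0.47 ± 0.07). Autophagy genes showed 5 higher and 2 lower of 21, and the number that rose was 3 without WT day 1 replicate 1 and 3 without WT day 14 replicate 2. The number of autophagy genes that rose was near the share of all genes tested (18.2% higher). Of 20 heat shock genes, 5 were higher and 3 lower (4 and 4 with library totals), with the HSP70 cofactor gene Hsph1 the furthest up (1.12 ± 0.12). Serpinh1, also among the higher ones, is the collagen chaperone already counted with the collagen-processing genes and is not cytosolic.

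Sterol and fatty acid synthesis fell. None of 24 cholesterol genes was higher and 15 were lower, with a median of -0.42, and none of 14 fatty acid genes was higher and 8 were lower. Hmgcs1, which makes the precursor of mevalonate, had 95.6 and 99.9 CPM at day 14, against 171 and 168 CPM at day 1 (-0.80 ± 0.09, adjusted p = 8.40e-07). Srebf2, the master regulator of the pathway, had 151 and 147 CPM at day 14, against 263 and 257 CPM at day 1 (-0.80 ± 0.07, adjusted p = 8.46e-09). The days did not overlap for either gene. Sqle (-0.77), Cyp51 (-0.79), Srebf1 (-0.70), Fasn (-0.65) and Fads2 (-0.63) fell by less than 2-fold each.

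Genes of energy metabolism changed in both directions. Of 31 glycolytic enzymes and glucose or lactate transporters, 10 were higher and 4 lower, and Gapdh, Ldha and Pkm were not called. Pdk4, the kinase that shuts off pyruvate dehydrogenase, had 68.2 and 71.5 CPM at day 14, against 29.8 and 30.8 CPM at day 1 (1.21 ± 0.09), and Aldoc also rose (1.85). Of these genes, the number that rose was 6 without WT day 1 replicate 2. Targets of the hypoxia factor HIF showed 5 of 21 higher and 4 lower (5 and 6 with library totals). In the main fit these counts were near the shares of all genes tested, 18.2% higher and 15.9% lower. The oxygen sensor Egln3 had 66.3 and 71.9 CPM at day 14, against 19.4 and 22.7 CPM at day 1 (1.71 ± 0.22), while Angptl4 (-2.07) was lower. Of 79 nuclear genes of oxidative phosphorylation, 19 were higher and 2 lower, led by Ndufa4l2 (1.52), and the number that rose was 10 without WT day 1 replicate 2 and 12 without WT day 14 replicate 2. With library totals 16 of them were higher and 9 lower, and 6 were lower in a fit to the 4 libraries alone. Of 12 mitochondrially encoded genes, 5 were lower. That count rests on WT day 1 replicate 2: mt-Cytb had 2117 and 1711 CPM at day 14, against 2314 and 3266 CPM at day 1, and none of the 12 was called without that library and 2 were without WT day 14 replicate 2. In the glutathione and antioxidant list 10 of 30 were higher and 8 lower. Slc7a11, Gsr (-0.70) and Gss (-0.61) were among the lower ones, and the number that rose was 6 without WT day 1 replicate 2 and 6 without WT day 14 replicate 2, the number that fell was 5 without WT day 1 replicate 2 and 5 without WT day 14 replicate 2.

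Proliferation genes rose more often than they fell. Of 41 DNA replication genes, 16 were higher and 2 lower, and of 44 mitosis genes 15 were higher and 2 lower, with medians of 0.14 and 0.10. Mki67, the marker of cycling cells, had 733 and 698 CPM at day 14, against 761 and 787 CPM at day 1 (-0.11 ± 0.06), and was not called (adjusted p = 0.151), but was called lower with library totals in place of TMM (adjusted p = 0.026). Cdc6, which loads the replicative helicase, had 99.0 and 96.5 CPM at day 14, against 58.1 and 52.6 CPM at day 1 (0.82 ± 0.10, adjusted p = 1.02e-06), and Birc5 (0.53) and Mad2l1 (0.45) of the mitotic list also rose. Of the replication genes, the number that rose was 9 without WT day 1 replicate 2. Of the mitosis genes, the number that rose was 8 without WT day 1 replicate 2 and 8 without WT day 14 replicate 1. With library totals 11 replication and 10 mitosis genes were higher, and 4 mitosis genes were lower. Among regulators of cyclin-dependent kinases, Cdkn2c (0.67), Ccnd1 (0.47) and Cdk4 (0.43) were higher, Cdk6 (-0.70) was lower, and the inhibitors Cdkn1a and Cdkn1b were not called. Of 26 p53 targets, 3 were higher and 6 lower (2 and 7 with library totals), with Perp the furthest down (-1.82). Of 22 histone genes that passed the filter, 2 were higher and 4 lower, the latter near the share of all genes tested (15.9% lower). Most replication-dependent histone genes lack a poly(A) tail and were below the filter.

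Ligands and inhibitors of Wnt signalling rose more often than they fell, 14 against 6 of 36. The number that fell was near the share of all genes tested (15.9% lower). Rspo2, which amplifies Wnt signals, had 38.5 and 55.0 CPM at day 14, against 7.47 and 7.67 CPM at day 1 (2.61 ± 0.18, adjusted p = 5.37e-10). Dkk3 (1.44), Ror1 (1.98), Rspo3 (1.45), Fzd4 (1.20) and Sfrp2 (0.79) rose, and Wnt10b, an osteogenic ligand, fell to 45.3 and 46.7 CPM at day 14, against 112 and 108 CPM at day 1 (-1.26 ± 0.12). Of 18 genes listed as targets of beta-catenin, 4 were higher and 6 lower (3 and 9 with library totals). Lef1 (-1.15) and Rnf43 (-0.53) were lower, Nkd1 (0.82) was higher, and Axin2, a widely used readout, was not called (-0.04). Porcn, which acts on Wnt ligands and is not a readout of beta-catenin, was also lower (-1.65).

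Of 17 targets of BMP and TGF-beta signalling, 7 were higher and 5 lower. The BMP-responsive Id4 had 6.65 and 7.98 CPM at day 14, against 0.650 and 1.11 CPM at day 1 (3.03 ± 0.32), and Id2 (1.41), Atoh8 (1.75) and Smad6 (0.66) were higher. The TGF-beta-responsive Tgfbi (-1.43), Pmepa1 (-1.0), Skil (-0.74) and Smad7 (-0.52) were lower. Among ligands and antagonists, Bmp3 (2.32), Nog (1.77) and Bmp8a (1.40) rose, and Inhba, the activin A subunit, fell to 93.5 and 85.5 CPM at day 14, against 185 and 179 CPM at day 1 (-1.02 ± 0.08, adjusted p = 2.14e-09). The Notch effectors Hey1 (2.10) and Hey2 (1.78), the ligand Jag2 (0.81) and the receptor Notch1 (0.77) were higher, and Notch2 (-0.38) was lower. Of 22 Hedgehog and FGF genes, 7 were higher and 4 lower, and the number that rose was 4 without WT day 1 replicate 2 and 4 without WT day 14 replicate 1. At most 1 of the 4 lower calls was left without any 1 of the 4 libraries, and DESeq2 called 2. The FGF feedback gene Spry4 had 5.05 and 4.51 CPM at day 14, against 1.75 and 1.97 CPM at day 1 (1.37 ± 0.26), and the ligand gene Fgf7 was also higher (0.92).

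The insulin-like growth factor (IGF) pathway held some of the larger changes. Igfbp5, the main IGF-binding protein of bone, had 709 and 674 CPM at day 14, against 161 and 171 CPM at day 1 (2.06 ± 0.14, adjusted p = 5.30e-10). Pappa2, the protease that cleaves Igfbp5, had 66.3 and 70.8 CPM at day 14, against 8.51 and 8.0 CPM at day 1 (3.05 ± 0.13, adjusted p = 1.88e-13). The ligand gene Igf2 (1.82 ± 0.09) and Igfbp2 (1.10) rose, the related protease Pappa fell (-0.89) and Igf1 was not called. In all, 9 of 17 were higher and 2 lower. Among glucocorticoid and FOXO responsive genes 12 of 25 were higher and 3 lower, with Klf15 (1.12) and Cited2 (0.94) higher and Fkbp5 (-0.33) lower. Clock genes were lower in 8 of 18 cases and higher in 1, and the number that fell was 4 without WT day 1 replicate 1, 3 without WT day 1 replicate 2, 4 without WT day 14 replicate 1 and 3 without WT day 14 replicate 2.

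Piezo1, the channel the study deletes, was not called in WT cells, with 210.5 and 206 CPM at day 14, against 216 and 214 CPM at day 1 (-0.05 ± 0.06, adjusted p = 0.586). Among 18 mechanosensitive channels and connexins 4 were higher and 4 lower. Gja1, the connexin 43 of osteocyte gap junctions, had 112 and 117 CPM at day 14, against 49.3 and 48.5 CPM at day 1 (1.22 ± 0.10, adjusted p = 4.88e-09). The stretch-activated potassium channel gene Kcnk2 (1.06) and the polycystin Pkd2 (0.61) were higher, and the connexin Gjc1 (-0.91) and Tmem63b (-0.42) were lower. Of 24 contractile and actin-binding genes, 9 were higher and 4 lower (8 and 7 with library totals). Acta2, the smooth muscle actin, had 406 and 400.1 CPM at day 14, against 162 and 154 CPM at day 1 (1.35 ± 0.07, adjusted p = 1.10e-11). Actg2 (1.81), Cnn1 (1.30), Mylk (1.04) and Myl9 (0.91) were higher too, while the tropomyosin gene Tpm1 (-0.35) and the caldesmon gene Cald1 (-0.21) were lower, and Cald1 was not called without any 1 of the 4 libraries (adjusted p = 0.0854 to 0.139). Of 26 targets of YAP and TAZ, 6 were higher and 5 lower. Over all genes tested 18.2% were higher and 15.9% lower. The counts for the channels and connexins and for the YAP and TAZ targets were near those shares. Among these targets Ccn1 (0.64) and Amotl2 (0.58) rose, Ajuba (-0.76) fell, and Ankrd1 and Ccn2 were not called. Immediate early genes showed 4 of 27 higher and 7 lower (3 and 9 with library totals), with Egr1 (-0.87) and Junb (-0.62) lower and Jun (0.65) and Dusp6 (0.89) higher. Of 37 genes of axon and dendrite guidance, 17 were higher and 4 lower (15 and 7 with library totals). Map2, a microtubule protein of dendrites, had 47.3 and 46.5 CPM at day 14, against 13.2 and 14.5 CPM at day 1 (1.76 ± 0.13), and Unc5c (1.77) and Ephb2 (1.14) rose, while Sema6a (-1.08) and Tubb3 (-1.08) fell.

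Genes of positional identity differed between the lists. Of 32 Hox genes that passed the filter, 6 were lower and 2 higher. Over all genes tested 15.9% were lower and 18.2% higher, so the lower Hox calls were near the share of all genes. Fewer Hox genes were called in either direction without any 1 of the 4 libraries. Hoxc8 had 13.9 and 15.4 CPM at day 14, against 23.4 and 23.9 CPM at day 1 (-0.70 ± 0.12), and it fell beside Hoxb9. Of 31 craniofacial and limb factors, 12 were higher and 1 lower. Alx4, a homeobox factor of skull and limb, had 1.43 and 1.39 CPM at day 14, against 0.0650 and 0.197 CPM at day 1 (3.34 ± 0.69), and Twist1 and Lhx2 (0.70) were also higher. The size of the Alx4 change rests on few counts at day 1.

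Markers of other cell types were called in some lists and not in others. No marker of skeletal muscle (5 measured of 18) or blood cells (9 of 14) was called, and the defining Myod1, Myog, Cd3e and Adgre1 were below the filter. Of 12 chondrocyte markers, Hapln1 (1.40) and Col11a2 were higher and Sox9 (-0.71) and Matn3 (-2.54) lower, with Acan and Col10a1 below the filter. Of 13 adipocyte markers, 3 were higher, among them Apoe (1.17) and Car3 (0.96), 1 was lower (2 with library totals) and Adipoq was not called. Of 7 endothelial markers 2 were higher, Vwf (1.90) and Kdr (1.5), with Cdh5 and Pecam1 not called, and Kdr lost its call without WT day 1 replicate 1 (1.06) or without WT day 14 replicate 1 (1.34). Of 10 fibroblast and tendon markers, 4 were higher and 2 lower. Fap, a serine protease of activated fibroblasts, had 16.3 and 15.8 CPM at day 14, against 2.99 and 2.69 CPM at day 1 (2.50 ± 0.18), Cd34 (1.38) and Pdgfra (1.09) were higher, and the tendon factor gene Scx was lower (-1.36 ± 0.11). Of 9 osteoclast markers, 5 were higher and 1 lower, and the number that rose was 3 without WT day 1 replicate 2 and 3 without WT day 14 replicate 2. Itgb3, the osteoclast vitronectin receptor chain, had 30.7 and 34.6 CPM at day 14, against 11.9 and 16.8 CPM at day 1 (1.18 ± 0.15), while Calcr and Ocstamp were below the filter. Of the other lists, S100b (1.79) was higher among 4 neural markers and Krt14 (-0.71) lower among 2 epithelial ones, and neither was called without WT day 14 replicate 2 (1.54 and -0.67).

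The summed level of each of these marker lists is given for the WT libraries. A sum is weighted towards the most abundant members of a list. The chondrocyte list summed to 842 and 889 CPM at day 14, against 332 and 358 CPM at day 1. Its 12 tested members had a median log2 fold change of only 0.05, with 2 called higher and 2 lower, so the sum does not describe the whole list. The osteoclast list summed to 253 and 275 CPM at day 14, against 202 and 198 CPM at day 1, and the adipocyte list to 190.5 and 187 CPM, against 131 and 143 CPM. These 3 sums were higher at day 14 with no overlap. The fibroblast list summed to 467 and 422 CPM at day 14, against 441 and 465 CPM at day 1, and overlapped. Muscle, blood, endothelial, neural and epithelial lists stayed at or below 31.2 CPM in each WT library of these days. The part of other cells in the changes above was not tested.

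From day 14 to day 28 the WT cells changed in 4780 genes (34.7%), 2467 higher at day 28 (17.9%) and 2313 lower (16.8%). The 2 comparisons share the WT day 14 libraries, so their values are given side by side. Of the ER genes 26 of 34, and of the interferon genes 32 of 43, were higher at day 28. Hspa5 had 9775 and 10331 CPM at day 28, against 4982 and 5258 CPM at day 14 (0.97 ± 0.07, adjusted p = 1.81e-09). Isg15 had 38.4 and 38.2 CPM at day 28, against 30.6 and 32.5 CPM at day 14 (0.28 ± 0.14, adjusted p = 0.13). Collagens moved the other way, with 16 of 24 lower at day 28 and 2 higher. Col1a1 fell to 3053 and 2045 CPM at day 28, against 6889 and 7498 CPM at day 14 (-1.5 ± 0.16, adjusted p = 4.79e-07). Dmp1 had 12.8 and 8.17 CPM at day 28 and was not called against day 14 (-0.38 ± 0.21, adjusted p = 0.168), but was called lower without WT day 28 replicate 1 (-0.76 in log2). Of the 24 sterol genes, 13 were higher at day 28 than at day 14 and 1 was lower. Of the 13 osteocyte markers, 7 were lower at day 28 and none higher. The largest rises among called genes were in Gbp9 (3.42 ± 0.31), Ifi207, Gm15708, Gbp6 and Gng3, and the deepest falls included those of Ankrd37 (-3.01 ± 0.24), Smtnl2, Adamts18 and C430049B03Rik. The integrated stress genes, split at day 14, were higher at day 28 in 26 of 33 cases.

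**Figure D3:**
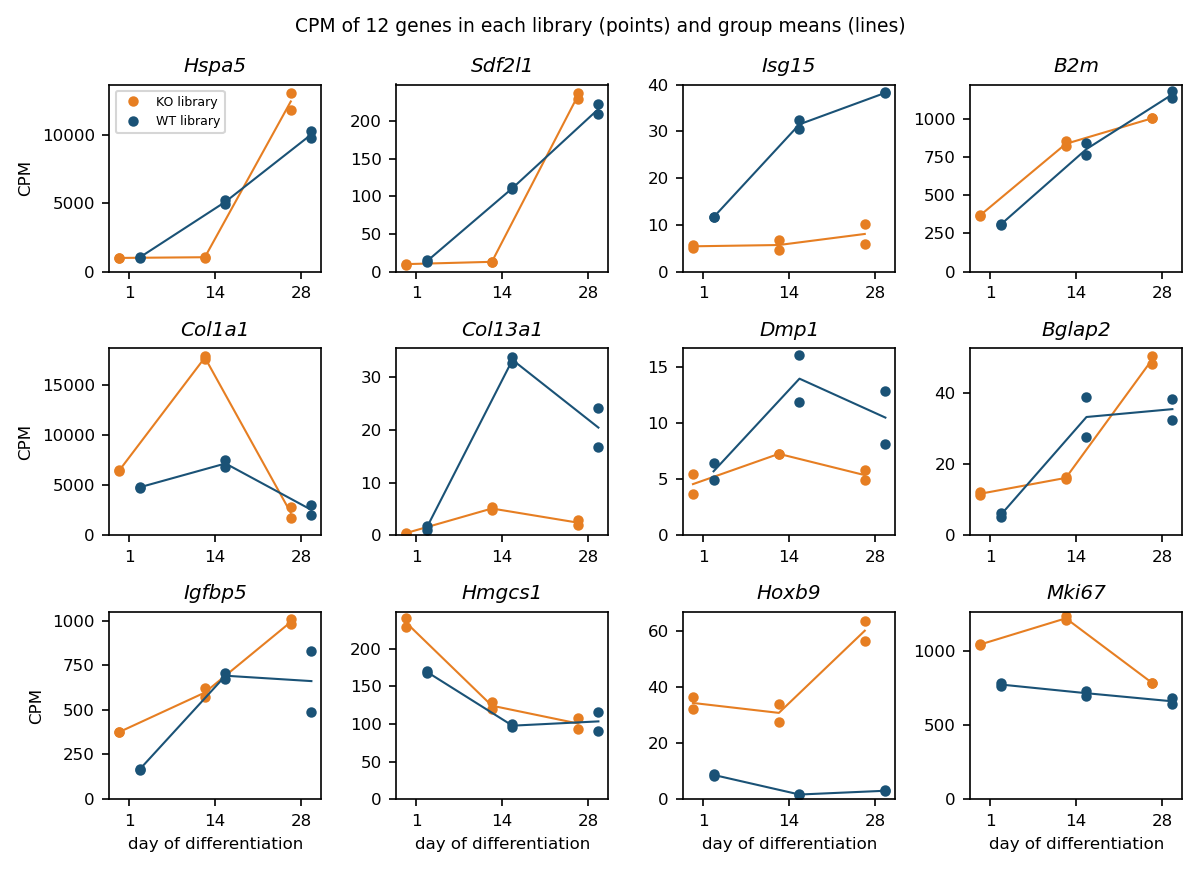
CPM (vertical) of 12 genes at days 1, 14 and 28 of differentiation (horizontal) in each library, with KO libraries in orange and WT libraries in blue and lines through the group means. WT libraries at day 14 lie above those at day 1 for Hspa5, Sdf2l1, Isg15, B2m, Col1a1, Col13a1, Dmp1, Bglap2 and Igfbp5. They lie below those at day 1 for Hmgcs1 and Hoxb9, and also for Mki67, which was not called.

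Whether the change from day 1 to day 14 differed in the KO line was tested as the difference of the change in KO cells minus that in WT cells, which share no library. Piezo1 reads were present in both lines, at 108 to 169.7 CPM in the KO libraries of days 14 and 1 and at 206 to 216 CPM in the WT libraries of those days, and a gene-level count does not show the loss of 3 exons. The change in KO cells themselves was called for 5159 genes (37.5%), 2676 higher at day 14 (19.4%) and 2483 lower (18%). The difference was called for 2594 genes (18.8%), 1265 with a higher change in KO cells (9.19%) and 1329 with a lower one (9.65%). That count was 1668 without KO day 1 replicate 2 and 1679 without KO day 14 replicate 1, and 4093 in a fit to the libraries of these 4 groups alone. Over all 13772 genes the 2 changes had a Pearson correlation of 0.465, as a description over genes, which are not independent. Of the genes called in WT cells 52.9% were called in KO cells as well, which is 48.1% of those called in KO cells, and 2189 of these 2483 moved in the same direction.

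The rise of ER chaperones differed between the lines. In KO cells Hspa5 had 1079.6 and 1031 CPM at day 14, against 1013 and 995 CPM at day 1, and the difference of the change was -2.23 ± 0.10 in log2 (adjusted p = 1.14e-12). Calr (-2.69 ± 0.10, adjusted p = 1.80e-13) and Sdf2l1 (-2.66 ± 0.16, adjusted p = 1.91e-10) differed in the same way. These differences concern days 1 to 14 only. At day 28 Hspa5 averaged 12464.6 CPM in KO cells and 10053.0 CPM in WT cells. Calr averaged 8259.3 CPM in KO cells and 5427.0 CPM in WT cells at that day. The change to day 28 in KO cells was not tested. Of the 34 ER genes, 25 had a lower change in KO cells and none a higher one, while in KO cells themselves 19 were higher at day 14 and 4 lower, with a median log2 fold change of 0.27. Of the 43 interferon-stimulated genes, 20 had a lower change in KO cells and none a higher one, and in KO cells themselves 16 were higher at day 14 and none lower, with a median of 0.65. Isg15 had 4.71 and 6.68 CPM in KO cells at day 14, against 5.04 and 5.81 CPM at day 1 (difference -1.36 ± 0.28, adjusted p = 0.0017). The ribosomal protein genes had a lower change in KO cells in 56 of 83 cases, and the proteasome genes, which fell in WT cells, had a higher change in KO cells in 27 of 37. Integrins and laminins (12 of 23) and lysosomal genes (18 of 50) also had lower changes in KO cells. Of 20 antigen presentation genes, 3 had a higher change in KO cells and 1 a lower one.

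Collagens went the other way. Col1a1 had 17919.5 and 17669 CPM in KO cells at day 14, against 6411 and 6507 CPM at day 1, and its change was larger than in WT cells (0.88 ± 0.22, adjusted p = 0.007), although DESeq2 did not call that difference (adjusted p = 0.0863). Of 24 collagens, 11 had a higher change in KO cells and 5 a lower one. Runx2, near the threshold and not called in WT cells in the main fit, rose in KO cells (difference 0.90 ± 0.13, adjusted p = 6.19e-05). HIF targets had a higher change in KO cells in 13 of 21 cases, and Ankrd37 had 23.1 and 31.3 CPM in KO cells at day 14, against 3.58 and 3.82 CPM at day 1 (difference 3.44 ± 0.29, adjusted p = 5.04e-08). Dmp1 did not differ in a called way (-0.59 ± 0.34, adjusted p = 0.257). The differences furthest from 0 were higher in KO cells for Adamtsl1 (4.49 ± 0.57), Mlip, Gpr35, Cd248 and S1pr3, and lower for Tnni1 (-3.94 ± 0.86), H2-Q6, Synpo2l, Lama3 and Palm3. The value of Mlip rests on 2 counts over the KO day 1 libraries and that of Tnni1 on 2 counts over the KO day 14 libraries. The rest of these genes were also rare in KO cells. The mean of the lower KO day ran from 0.184 CPM (Palm3, day 14) to 0.562 CPM (Lama3, day 14). Hoxb9 and Spock2, which fell in WT cells, had differences of 2.26 ± 0.27 and 3.59 ± 0.37.

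**Figure D4:**
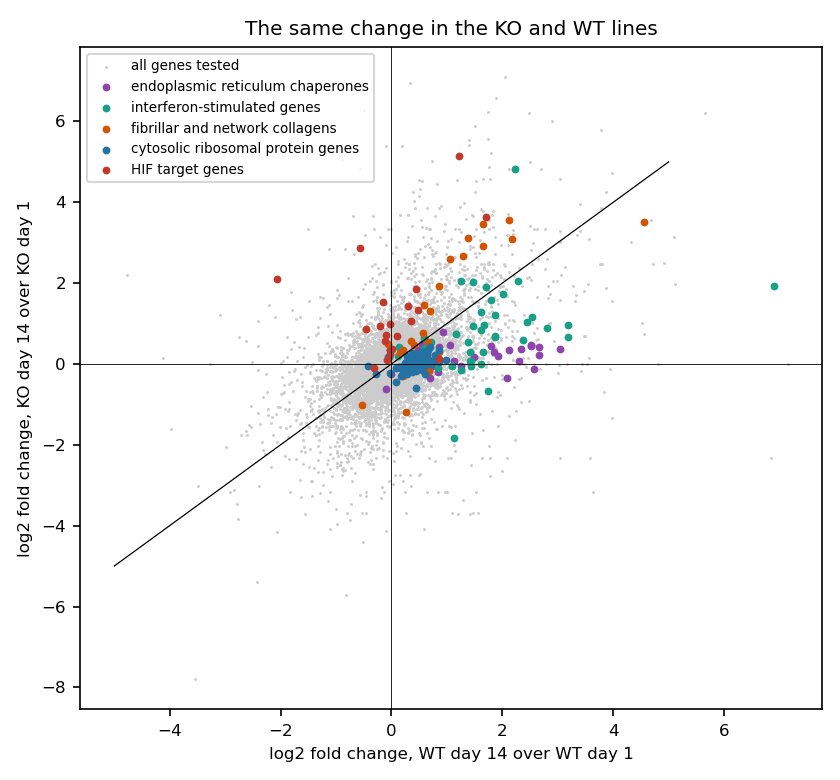
Log2 fold change of day 14 over day 1 in KO cells (vertical) against the same in WT cells (horizontal), 1 point a gene, with 5 gene lists coloured and the line of equal change drawn. Many ER chaperone genes lie to the right of the line of equal change, with 25 of 34 called lower for the change in KO cells, and collagens and HIF targets lie mostly above the line.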

How the data were processed

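The deposited table holds raw counts per gene for 12 libraries of poly(A) RNA, made by the authors; per the submitters' processing notes STAR, featureCounts of the Subread package and edgeR were used with the mm10 build, and no version, annotation or strand setting is named there. Of 32248 rows, 3 name transgenes and stayed out of library sizes and tests, and 9345 hold 0 in all libraries.

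Counts were filtered with edgeR's filterByExpr over the 6 groups (minimum count 10, minimum total 15), scaled by TMM and tested with quasi-likelihood F-tests in 1 fit to the 12 libraries without covariates (edgeR 4.0.16, limma 3.58.1, R 4.3.3), with Benjamini-Hochberg adjustment over 13772 genes. The common biological coefficient of variation was 5.53%, and library totals ran from 8590067 to 15357427, so genes with a few counts per library are measured loosely. The code was tested on simulated counts. Gene positions come from GENCODE M21 (GRCm38, the assembly of mm10), which matched 13633 genes by symbol and 53 by synonym. Promoter sequences are from RefSeq on GRCm38.p6.

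Genes are named by rule: the 15 largest called rises and falls (mean log2 CPM not under 1, days not overlapping), the 10 with the largest rise and fall in mean CPM, the 5 highest and lowest in the other comparisons, and members of 59 gene lists. The comparisons, members and lists were chosen with earlier results of these data known, and which list members are named was settled after their values were seen. Some genes that meet the rule are not reported here. Alternatives were library totals or RLE scaling, no filter, only the groups compared, a replicate block, DESeq2 1.42.0, an adjusted p below 0.01 and leaving out each library. Of the named genes, 84 of 303 have exons that overlap a gene on the other strand and 30 a gene on the same strand, and their counts may include that gene's reads. Intervals and floors of 3 counts cover counting error only.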

Additional observations from a re-analysis of the deposited data

Results flagged for a closer look

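The change from day 1 to day 14 differed between KO and WT cells in 2594 genes, by the test of the difference itself (edgeR quasi-likelihood, adjusted p below 0.05). Among the genes named, the change was higher in KO cells for Adamtsl1 (4.49 in log2), Mlip (4.40), Gpr35 (4.02), Cd248 (4.01), S1pr3 (3.97), Spock2 (3.59), Ankrd37 (3.44), Hoxb9 (2.26), Runx2 (0.90) and Col1a1 (0.88). It was lower in KO cells for Tnni1 (-3.94), H2-Q6 (-3.59), Synpo2l (-3.41), Lama3 (-3.41), Palm3 (-3.29), Calr (-2.69), Sdf2l1 (-2.66), Hspa5 (-2.23), Oasl2 (-1.37) and Isg15 (-1.36). The values of Adamtsl1, Mlip, Gpr35, Cd248, S1pr3, Tnni1, H2-Q6, Synpo2l, Lama3 and Palm3 rest on few counts in a KO group, as given above.

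The count table also carries rows for transgenes that no label of these samples mentions. The row named YAPS127_P2A_EGFP had 82 and 45 counts in the WT day 14 libraries, against 2 and 3 in the WT day 1 libraries. It had 224 and 75 counts in the WT day 28 libraries and 0 to 7 in the KO libraries. The row named Tdtomato had 9 and 19 counts in the WT day 14 libraries, against 10 and 7 in the WT day 1 libraries. Its CPM, at 0.758 and 2.20 against 0.650 and 0.459, did not overlap between the days but rests on these few counts. Where these reads come from was not tested.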

How the results depend on the processing

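The number of genes called between WT day 14 and WT day 1 was 4696, and it was 3724 with DESeq2 (2033 higher, 1691 lower), 5896 in a fit to these 4 libraries, 4668 with no filter, 4693 with RLE scaling and 3139 to 3401 without any 1 of the 4 libraries. Lower genes numbered 1355 to 1500 without 1 library. At an adjusted p below 0.01 there were 1369 lower genes and 138 more than 2-fold lower, and for the KO minus WT difference 1460 (698 higher, 762 lower). That difference was called for 4093 genes (2063 higher, 2030 lower) in a fit to its 4 groups, and for 1668 to 1914 (766 to 879 higher) without 1 library. Between WT day 28 and WT day 14, 3123 genes passed 0.01 (1636 higher, 1487 lower), and 1530 were lower in a fit to these 2 groups. Same-numbered replicates were not paired by the data (correlations of deviations from -0.039 to 0.139), and with a replicate block 4693 genes were called, 4608 of them also without it; Runx2 was then called lower (-0.24, adjusted p = 0.0394). Of the 51 counts of 1 to 4 genes within a list, 20 moved by over 1.5 times without some library, as did 17 of 53 counts of 5 or more. The causes were not tested. Genes at about 1 CPM, such as Sost, rest on few counts per library.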
